A study of Mus musculus with 2 samples.

Results

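The MiT/TFE family consists of the basic helix-loop-helix leucine zipper transcription factors encoded by Mitf, Tfeb, Tfe3 and Tfec, and the folliculin complex of the products of Flcn, Fnip1 and Fnip2. The RNA of these 7 genes was measured in mouse embryonic stem (ES) cells, among 13620 genes of the deposited table. The table listed Mitf, Flcn, Fnip1 and Fnip2 under these symbols, and the other 3 under the older symbols Tcfeb, Tcfe3 and Tcfec, which were matched by Ensembl identifier, so that every member was found. The set was chosen from the readout itself. Tfec was selected on its ratio between these same libraries, one of the largest, and the comparison asks whether its paralogues follow it. The ratios below are therefore a description and were not tested.

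The 2 groups compared had 1 library each of polyadenylated RNA: wild-type ES cells and ES cells of genotype Fbxl10 T/T, both of the C57BL/6J strain. Both were grown with serum and leukemia inhibitory factor on mitomycin C-inactivated embryonic fibroblasts, which were depleted by their adhesion to plastic. Fbxl10 is an older name of Kdm2b, whose protein binds CpG-rich promoters through a CXXC domain and belongs to a variant Polycomb complex. With 1 library per genotype, differences between genotypes, clones, cultures and library preparations cannot be told apart, and "higher" or "lower" refers to these libraries. In RNA from bulk cells, fewer cells of a type and less RNA per cell also cannot be told apart.

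Over the listed genes the wild-type library held 21198574 reads and the T/T library 27109446. Kdm2b was at 102.5 CPM (normalised reads, scaled to an effective library size) in wild-type cells against 10.6 CPM in T/T cells. The ES cell label was checked against markers written down with earlier results of these data known. Of 14 pluripotency genes, 10 were at least 2-fold lower and 0 higher in Fbxl10 T/T, with summed levels of 7668 and 2178 CPM. Of 22 endoderm genes 19 were at least 2-fold higher and 2 lower, with summed levels of 9128 CPM in wild-type cells against 78892 CPM in T/T cells. Over all genes with at least 1 CPM in a library, 14.8% were at least 2-fold higher and 20.6% lower. The libraries thus differed in these markers as well as in genotype, and the part of this difference in the results below was not tested.

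MiT/TFE proteins bind short E-box sequences as homodimers or as heterodimers with each other, and activate genes of lysosomes and autophagy. When nutrients are plentiful, folliculin with FNIP1 or FNIP2 acts as a GTPase-activating protein for RagC and RagD at the lysosome, which allows the kinase complex mTORC1 to phosphorylate TFEB and TFE3 and keep them in the cytoplasm. In mouse ES cells folliculin is known for its role in the exit from pluripotency, where it restrains nuclear TFE3, and TFE3 in turn sustains Esrrb. RNA levels do not show where these proteins were located.

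Tfec and the whole folliculin complex were higher in the Fbxl10 T/T library, while Tfe3 and Tfeb were slightly lower and Mitf stayed near the limit of what was listed. Among the 7 members, those at least 2-fold higher numbered 4 (Tfec, Flcn, Fnip1 and Fnip2), with 0 at least 2-fold lower and 3 in between. The measure is a log2 ratio, T/T over wild type, taken after adding 0.5 CPM to both levels, which understates the ratios of low genes. Of all 13512 genes with at least 1 CPM in a library, 14.8% were at least 2-fold higher and 20.6% at least 2-fold lower, and their median log2 ratio was 0.02. All 7 members reached this minimum, Mitf only in T/T cells, and their median log2 ratio was 1.66. Because the contrast also chose Tfec, nothing is read from the comparison of these shares. After rescaling both libraries to a common upper quartile, the split over all genes moved from 1994 higher and 2781 lower to 1443 and 3254, and with a common total to 1317 and 3405, while 4 members remained higher under both.

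**Figure D1:**
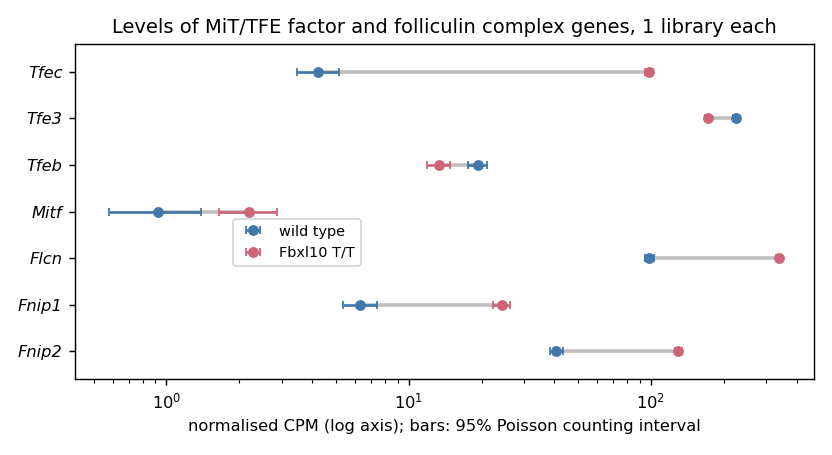
Normalised CPM (log axis) of the 4 MiT/TFE factor genes and 3 folliculin complex genes in the wild-type library (blue) and the Fbxl10 T/T library (red), 1 library each, with 95% Poisson counting intervals. Tfec lies at 4.23 and 98.5 CPM, Flcn, Fnip1 and Fnip2 lie further right in Fbxl10 T/T, and Tfe3 and Tfeb lie further left.

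Tfec encodes the family member best known from macrophages. It had 101 reads (4.23 CPM) in the wild-type library against 2431 reads (98.5 CPM) in the T/T library. The Fbxl10 T/T level was 23.3-fold higher, with an exact binomial (Clopper-Pearson) 95% counting interval of 19.1- to 28.7-fold. Intervals here cover counting error only, not the spread between cultures or library preparations. PCR copies, which are not independent molecules, would make them too narrow even for that. Its log2 ratio of 4.39 was in place 5 of 13512, and its entry in the authors' deposited table, where the sign is that of wild type against T/T, is -4.54 on the log2 scale. The gene (ENSMUSG00000029553) is listed on chromosome 6 from 16783392 to 16848441 in mm9.

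Tfe3 and Tfeb did not follow Tfec. Tfe3, which encodes the broadly expressed family member studied in ES cells, was at 224 CPM in wild-type cells against 172 CPM in T/T cells, from 5361 and 4256 reads. It was thus 1.30-fold lower in Fbxl10 T/T (counting interval 1.25 to 1.36). Tfeb, which encodes the best studied regulator of lysosomal genes, was at 19.3 and 13.4 CPM, from 461 and 330 reads, and was 1.44-fold lower (interval 1.25 to 1.67). Neither passed 2-fold, and both stayed on the lower side under every scaling, pseudocount and minimum tried. The size depended on the scaling. With a common total the log2 ratio of Tfe3 moved from -0.38 to -0.69 and that of Tfeb from -0.51 to -0.81. Both moves exceeded the counting error, and the median of all genes moved from 0.02 to -0.27. Mitf, which encodes the factor of melanocytes and osteoclasts, had only 22 reads in wild type (0.921 CPM) and 54 in Fbxl10 T/T (2.19 CPM). Its ratio of 2.37-fold (interval 1.42 to 4.09) gave a log2 ratio of 0.92 after the constant was added. Mitf alone among the members changed class with the constant: with 0.1 CPM its log2 ratio was 1.16, which makes 5 higher members.

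The 3 genes of the folliculin complex were higher by similar factors. Flcn, which encodes folliculin, was at 98.6 CPM in wild-type cells against 337 CPM in T/T cells, from 2355 and 8320 reads, or 3.42-fold higher (interval 3.26 to 3.58). Fnip1 and Fnip2 encode the interchangeable partners of folliculin. Fnip1 was at 6.32 and 24.2 CPM, from 151 and 598 reads, or 3.83-fold higher (interval 3.20 to 4.61). Fnip2 was at 40.7 and 129.8 CPM, from 972 and 3204 reads, or 3.19-fold higher (interval 2.97 to 3.43). The interval of Fnip1 overlaps both others, and those of Flcn and Fnip2 overlap as well, so the intervals of the 3 ratios all overlap in pairs. At a 4-fold threshold 0 of these 3 genes and, of all 7 members, only Tfec passed. The share of measured genes with a smaller log2 ratio was 94.8% for Flcn, 95.4% for Fnip1 and 94.0% for Fnip2, against 30.5% for Tfeb, 34.3% for Tfe3 and 83.3% for Mitf.

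**Figure D2:**
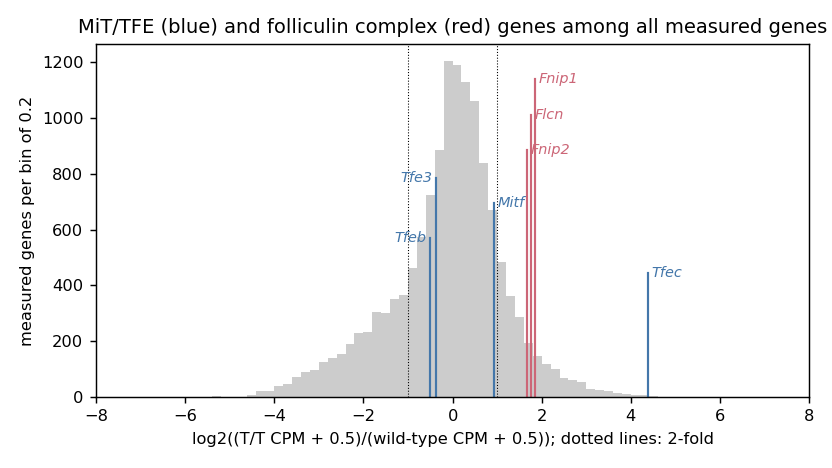
Histogram of the log2 ratio (T/T over wild type, CPM + 0.5) of the 13512 measured genes, with lines for the 4 MiT/TFE genes (blue) and the 3 folliculin complex genes (red); the height of a line has no meaning. Tfec at 4.39 lies in the far right tail, the folliculin complex lies between 1.66 and 1.86, and Tfe3 and Tfeb lie left of 0.

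In mm9 Flcn is listed on chromosome 11 from 59604959 to 59623521 and Fnip1 on the same chromosome from 54251691 to 54331737. Fnip2 is listed on chromosome 3 from 79260172 to 79297397, Mitf on chromosome 6 from 97757052 to 97968701, Tfeb on chromosome 17 from 47873979 to 47929368 and Tfe3 on chromosome X from 7339802 to 7352327. No other listed gene overlapped any of these 7 intervals, on either strand.

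Levels of different genes were compared per kb of exon (union of all annotated exons, GENCODE M21). In wild type the order was Tfe3 (24.2 CPM per kb), Flcn (22.8), Fnip2 (4.87), Tfeb (3.41), Fnip1 (0.888), Tfec (0.756) and Mitf (0.149). The Poisson intervals of the neighbours Tfe3 (23.6 to 24.9) and Flcn (21.9 to 23.8) overlapped, as did those of Fnip1 (0.752 to 1.04) and Tfec (0.616 to 0.919), and those of the other neighbours did not. The direct ratio of Flcn to Tfe3 in wild type was 0.941, with an exact interval of 0.896 to 0.988. Overlap of single intervals thus did not make these levels equal. In Fbxl10 T/T the order became Flcn (78.0 CPM per kb), Tfe3 (18.6), Tfec (17.6), Fnip2 (15.5), Fnip1 (3.40), Tfeb (2.36) and Mitf (0.353). There the intervals of Tfe3 (18.1 to 19.2) and Tfec (16.9 to 18.3) overlapped, and those of the other neighbours did not.

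The make-up of the family's RNA therefore differed. Tfe3 held 84.9% of the summed per-kb level of the 4 factors in wild-type cells against 47.8% in T/T cells, while Tfec held 2.65% and 45.2%. Tfeb held 11.9% and 6.06%, and Mitf 0.521% and 0.907%. The sum itself was 1.36 times as high in T/T cells, at 38.9 against 28.5 CPM per kb. Without division by length that factor was 1.15 (286 against 249 CPM). Neither factor was recomputed under the other scalings, so a higher family total is not settled. Tfe3 exceeded Tfec per kb by a factor of 32.1 in wild-type cells (exact interval 26.3 to 39.4) and of 1.06 in T/T cells (1.01 to 1.11). The union of exons was 2.73 times the longest protein-coding transcript for Tfe3 and 3.13 times for Tfec. Per kb of that transcript, a choice made after seeing the data, Tfec exceeded Tfe3 in Fbxl10 T/T (55.1 against 50.9 CPM per kb), and their ratio in wild type was 28.0. Which of the 2 was more abundant in Fbxl10 T/T thus depends on the length used. The sum of the 4 factors per kb of that transcript was 112 CPM in T/T cells against 77.0 CPM in wild-type cells. The same length put Tfeb (8.24) above Fnip2 (5.58) and Tfec (2.37) above Fnip1 (1.01 CPM per kb) in wild type, and Tfeb (5.71) above Fnip1 (3.87 CPM per kb) in Fbxl10 T/T. It also set Tfe3 (66.2) further from Flcn (28.7 CPM per kb) in wild type, so the order of these genes depends on the length as well. The proportions within the folliculin complex were close in both libraries: Flcn held 79.9% of its summed per-kb level in wild-type cells against 80.5% in T/T cells, Fnip2 17.0% and 16.0%, and Fnip1 3.11% and 3.51%.

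**Figure D3:**
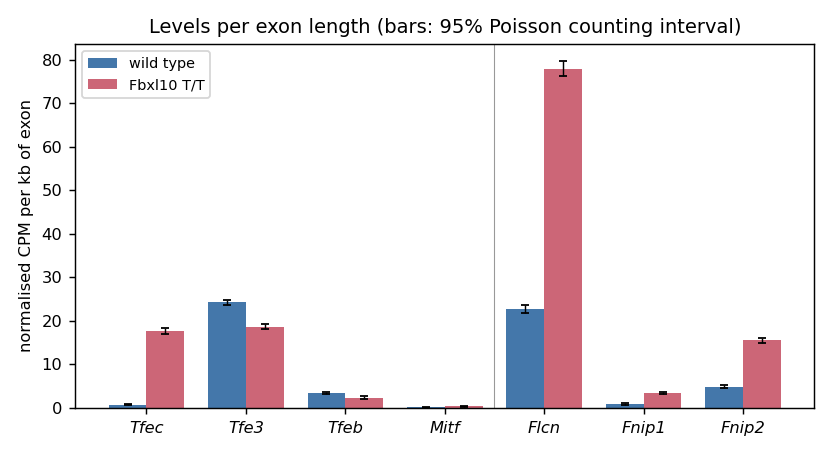
Normalised CPM per kb of exon in wild type (blue) and Fbxl10 T/T (red), 1 library each, with 95% Poisson counting intervals; the grey line separates the factors from the folliculin complex. Tfec goes from 0.756 to 17.6 CPM per kb and stands beside Tfe3 (18.6) in Fbxl10 T/T, and Flcn is the tallest bar there at 78.0.

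KDM2B is known to bind CpG-rich promoters, so the promoters of the 4 higher genes are shown for their CpG content, with every CpG in capitals. Each is the run of 250 bases before the RefSeq start site (GRCm38.p6), 5′ to 3′ on the strand of the gene. They lie at chr6:16898442-16898691 (minus strand) for Tfec, chr11:59810040-59810289 (minus) for Flcn, chr11:54437929-54438178 (plus) for Fnip1 and chr3:79567680-79567929 (minus) for Fnip2.
Tfec: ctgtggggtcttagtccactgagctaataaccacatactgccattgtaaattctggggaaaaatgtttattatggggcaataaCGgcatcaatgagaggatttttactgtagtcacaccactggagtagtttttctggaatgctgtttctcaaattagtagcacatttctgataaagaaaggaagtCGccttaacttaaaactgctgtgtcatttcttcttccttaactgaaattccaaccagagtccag
Flcn: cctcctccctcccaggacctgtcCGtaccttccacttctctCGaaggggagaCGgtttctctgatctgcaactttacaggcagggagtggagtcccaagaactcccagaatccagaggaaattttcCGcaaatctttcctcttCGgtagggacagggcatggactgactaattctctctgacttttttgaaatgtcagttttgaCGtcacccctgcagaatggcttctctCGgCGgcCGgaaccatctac
Fnip1: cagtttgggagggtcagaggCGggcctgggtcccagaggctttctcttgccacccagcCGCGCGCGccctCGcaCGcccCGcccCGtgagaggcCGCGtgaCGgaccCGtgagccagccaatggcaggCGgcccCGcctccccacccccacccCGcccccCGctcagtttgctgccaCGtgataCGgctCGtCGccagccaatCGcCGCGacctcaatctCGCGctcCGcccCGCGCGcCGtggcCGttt
Fnip2: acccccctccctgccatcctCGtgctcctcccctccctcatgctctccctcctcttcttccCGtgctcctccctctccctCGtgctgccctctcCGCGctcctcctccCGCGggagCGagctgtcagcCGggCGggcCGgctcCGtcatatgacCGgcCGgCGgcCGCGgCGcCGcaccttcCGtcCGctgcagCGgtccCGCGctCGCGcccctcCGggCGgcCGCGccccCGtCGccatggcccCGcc
The sequence of Tfec holds 2 CpG, that of Flcn 9, that of Fnip1 32 and that of Fnip2 33. Over windows of 300 bases, which add 50 bases after the start, the counts were 3, 20, 34 and 44, and the observed over expected CpG ratios were 0.25, 0.83, 0.92 and 1.03. The median over 32851 RefSeq windows was 7 CpG, and 23.3% of windows had fewer CpG than Tfec, against 97.8% for Fnip2. The windows of Tfe3 held 14 and 8 CpG, those of Tfeb 22, 20 and 6, and those of Mitf 22, 5 and 8, one for each annotated start. The genes higher in Fbxl10 T/T thus included the poorest in CpG and the richest of the family.

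All 7 members had a window in the RefSeq table, 12 windows in all, which were searched on both strands for motifs of MiT/TFE proteins. The E-box CACGTG was found in 1 window, that of Fnip1, beginning 75 bases before the start, and in 7.15% of all windows. The M-box TCATGTG was found in 0 of the 12 windows and in 3.77% of all windows. The CLEAR palindrome is CACGTG between GT on its left and AC on its right, so each one contains an E-box. It was found in 0 of the 12 and in 0.326% of all windows. A match or its absence describes only these letters in these windows.

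Tfec had 6 listed neighbours within 1 Mb in mm9, all on the side of higher coordinates, and 0 of them passed 2-fold once the 0.5 CPM was added. Tes, a gene for a focal adhesion protein, lay nearest, 167 kb away, at 38.8 CPM in wild-type cells against 43.1 CPM in T/T cells. The caveolin genes Cav2 (1.09 and 0.648 CPM) and Cav1 (14.3 and 10.6 CPM) and the growth factor receptor gene Met (2.22 and 0.932 CPM) were on the lower side. Without the constant Met, with 53 and 23 reads, was 2.38-fold lower (interval 1.43 to 4.07). Capza2, which encodes an actin capping protein (70.3 and 106.7 CPM), and St7 (9.04 and 16.2 CPM) were on the higher side.

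**Figure D4:**
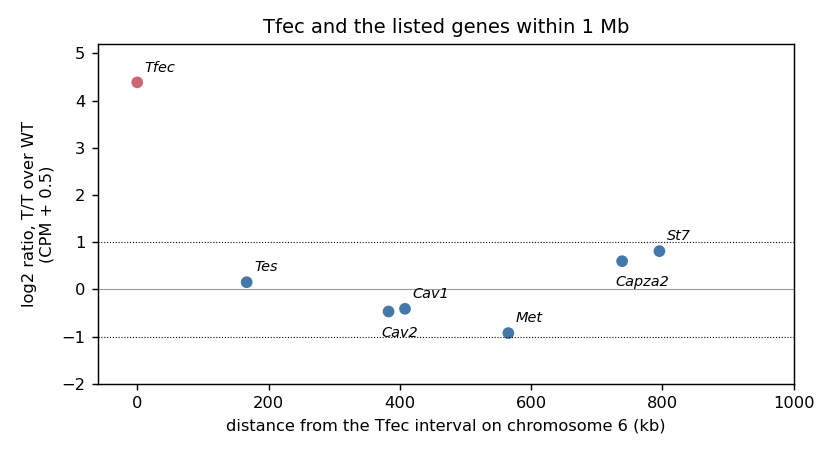
Log2 ratio (T/T over wild type, CPM + 0.5) of Tfec (red) and its 6 listed neighbours (blue) against distance in kb from the Tfec interval on chromosome 6 in mm9. Tfec stands at 4.39 and the neighbours lie between the dotted 2-fold lines, from -0.93 to 0.81.

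Ranked among the 10931 named genes that reached 5 CPM in a library, Tfec was in place 5 by log2 ratio. That place restates how Tfec was chosen. The 3 genes just above it were Vnn1 (2.26 and 86.4 CPM), which encodes a pantetheinase, Kcnk13 (1.47 and 45.1 CPM), a potassium channel gene, and Adamts9 (24.3 and 559 CPM), a secreted metalloprotease gene. The 3 just below were the keratin gene Krt23 (0.461 and 18.9 CPM), the ephrin gene Efna1 (5.28 and 114 CPM) and the serpin gene Serpinb6b (0.419 and 17.1 CPM). This likeness is over 2 libraries only. Tfec, Vnn1, Kcnk13, Krt23 and Serpinb6b reached 5 CPM only in T/T cells, so their entry into this ranking was tied to their direction.

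Genes that carry nutrient signals to the factors were read against the shares over all genes, 14.8% higher and 20.6% lower. Of 9 measured genes for Rag GTPases, Ragulator and the arginine sensor Slc38a9, 2 were at least 2-fold higher and 2 lower (22.2% each), near these shares, with a median log2 ratio of 0.62 beside 0.02 over all genes. The substrates of folliculin were on opposite sides. Rragc, which encodes RagC, was at 82.8 CPM in wild-type cells against 192 CPM in T/T cells (2.32-fold higher), whereas Rragd, which encodes RagD, was at 21.8 and 2.55 CPM (8.55-fold lower). Rragb, for RagB, was at 4.23 and 0.810 CPM (5.22-fold lower), and its paralogue Rraga, for RagA, at 166 and 96.6 CPM. Rragb reached 1 CPM only in wild type, so its entry into the count was tied to its direction. The Ragulator gene Lamtor3 was at 18.7 and 39.2 CPM (2.09-fold higher), and Lamtor5 was not listed. With a common upper quartile or total 0 genes of this list were higher and 3 lower. Over all 13512 measured genes a common total left 1317 higher and 3405 lower. These are the background of each count with a common total, here and below.

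Of 17 genes for GATOR, KICSTOR and the amino acid sensors, 2 were higher and 1 lower (11.8% and 5.88%, median -0.26), beside 14.8% and 20.6% of all genes. Mios and Sec13, which encode GATOR subunits, were at 4.90 and 13.3 CPM and at 210.4 and 556 CPM. Sec13 also serves in COPII coats and nuclear pores. Castor2, a gene of the arginine sensor family, was at 17.0 and 8.10 CPM. Of 10 genes for mTORC1 and the TSC complex 0 were higher and 2 lower (0% and 20%, median -0.27): Deptor, for an mTOR inhibitor, at 12.5 and 2.15 CPM, and the Rheb paralogue Rhebl1 at 33.0 and 15.6 CPM. Mtor itself was at 123 and 62.2 CPM and Tsc2, of the TSC complex, at 196 and 98.8 CPM. Both were named after their values were seen, and neither passed 2-fold. After rescaling to a common total 4 genes of each of these lists were lower. Of 7 genes for AMPK subunits and their activating kinase LKB1, 2 were higher and 0 lower (28.6% and 0%, median 0.73). Prkaa2, for a catalytic subunit, was at 5.57 and 42.6 CPM (7.64-fold higher), and Prkab1, for a regulatory subunit, at 90.7 and 192 CPM. With a common total 1 of them was higher.

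Genes whose products move MiT/TFE proteins between cytoplasm and nucleus numbered 20, with 2 higher and 2 lower (10% each, median 0.27), beside 14.8% and 20.6% of all genes. The calcineurin gene Ppp3ca was at 24.1 CPM in wild-type cells against 57.4 CPM in T/T cells, and the kinase gene Akt1 at 167 and 427 CPM. Of the lower genes, Ywhag, which encodes an adaptor that binds phosphorylated proteins, was at 1414 and 566 CPM. With a common total 1 of the 20 was higher.

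Lysosomal genes, the classical targets of TFEB and TFE3, were largely higher in Fbxl10 T/T. Of 39 genes 25 were at least 2-fold higher, 3 lower and 11 in between, with a median log2 ratio of 1.22, beside 14.8% higher, 20.6% lower and a median of 0.02 over all genes. Their summed level was 6778 CPM in wild-type cells against 15398 CPM in T/T cells. Largest were the ratios of Naglu, for an enzyme of heparan sulfate breakdown (9.88 and 70.9 CPM, 7.17-fold), the sialidase gene Neu1 (43.2 and 254 CPM, 5.88-fold) and Hexa, for a hexosaminidase subunit (169 and 674 CPM, 3.99-fold). The 3 lower genes were Gusb, for beta-glucuronidase (24.2 and 8.83 CPM), Gpnmb, for a membrane glycoprotein (6.41 and 2.59 CPM), and Ctsf, for a cathepsin (32.5 and 14.9 CPM). With a common total 17 were higher and 5 lower.

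Of 15 genes of the V-ATPase, the proton pump of lysosomes, 8 were higher and 0 lower (53.3% and 0%, median 1.11), beside 14.8% and 20.6% of all genes. The largest ratios were those of Atp6v0a1 (111 and 364 CPM), Atp6v0b (126 and 349 CPM) and Atp6v1d (46.1 and 125 CPM). With a common total 3 of the 15 were higher. The 42 autophagy genes were closer to the background, with 6 higher and 4 lower (14.3% and 9.52%, median 0.43), beside the same shares of all genes. Vamp8, for a fusion protein of autophagosomes and other vesicles (52.0 and 214 CPM), Atg16l2 (5.32 and 16.6 CPM) and Gabarap, which marks autophagosome membranes (173 and 471 CPM), had the largest ratios. Atg9b (9.0 and 1.70 CPM), Wipi2 (273 and 102 CPM) and the kinase gene Ulk1 (251 and 117 CPM) had the smallest. With a common total 3 autophagy genes were higher.

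**Figure D5:**
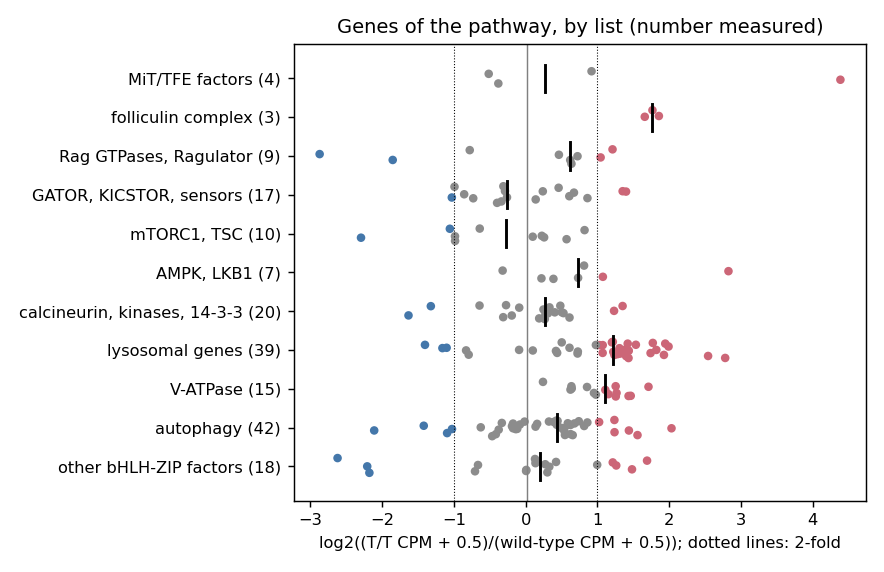
Log2 ratio (T/T over wild type, CPM + 0.5) of each measured gene by list, with 2-fold higher genes in red, 2-fold lower genes in blue, list medians as black bars and the median of all measured genes as a grey line. The folliculin complex (median 1.77), lysosomal genes (1.22) and V-ATPase genes (1.11) lie to the right, and the mTORC1 and GATOR medians (-0.27 and -0.26) slightly to the left.

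A short list of 11 genes known to respond to MiT/TFE proteins, in feedback or in ES cells, did not move in one direction. Of the 10 listed, 5 were higher (Flcn, Fnip1, Fnip2, Rragc and Ppargc1b), 3 lower (Rragd, Gpnmb and Esrrb) and 2 in between (Sqstm1 and Uvrag). These are 50% and 30%, beside 14.8% and 20.6% of all genes, with a median of 0.83. Esrrb, for a nuclear receptor of the pluripotency network and a target of TFE3 in ES cells, was at 818 CPM in wild-type cells against 49.3 CPM in T/T cells (16.6-fold lower). Ppargc1b, for a coactivator of mitochondrial genes, was at 2.26 and 6.52 CPM. Ppargc1a was not listed. The 3 folliculin complex genes, Rragc, Rragd, Gpnmb, Sqstm1, Uvrag and Esrrb also belong to the lists above, and their values are the same ones. Of the listed genes only Ppargc1b is in this list alone.

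Markers of other cell types in which Tfec or Mitf is known to act were sought. Of 17 macrophage and osteoclast genes 8 were listed and measured, 3 of them higher and 2 lower (37.5% and 25%, median -0.47), beside 14.8% and 20.6% of all genes, with summed levels of 49.6 and 87.2 CPM. Csf1r, for the receptor of colony-stimulating factor, was at 5.36 and 48.6 CPM, Acp5 at 5.99 and 17.8 CPM, and Mmp12 had 3 and 28 reads. Itgam was at 1.55 and 0.203 CPM and Cd68 had 501 and 240 reads. The defining leukocyte genes Ptprc, Adgre1, Tyrobp, Fcer1g, C1qa, C1qb and Aif1 were not listed, and the same holds for Oscar and Clec5a. Of 15 pigment cell genes 4 were measured, 1 higher and 2 lower (25% and 50%, 26.0 and 26.5 CPM in sum), beside the same shares of all genes. Tyr, Tyrp1 and Dct were not listed, Pmel was at 5.49 and 11.7 CPM, Mlana at 2.55 and 0.203 CPM and Sox10 at 1.97 and 0.608 CPM. Of 7 genes of retinal pigment epithelium 3 were measured (12.9 and 10.4 CPM in sum), with Rlbp1 at 5.57 and 0.527 CPM and Rpe65 not listed. Mmp12, Itgam, Mlana, Sox10 and Rlbp1 reached 1 CPM only in the library where they were higher. Their entry into these counts was thus tied to their direction. Of 21 fibroblast genes, which would mark feeder cells, 0 were higher and 4 lower, which is 19.0% beside 20.6% of all genes (median -0.70, summed levels 2985 and 1452 CPM). Most of the difference between these sums lay in Fn1 (1418 and 437 CPM) and Fstl1 (372 and 79.5 CPM), and 17 of the 21 genes did not pass 2-fold. With a common total 11 of the 21 were lower, beside 3405 of all 13512 measured genes.

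Most endoderm markers were at least 2-fold higher in T/T cells, as were Tfec, the folliculin complex, most lysosomal genes and 14.8% of all genes. With 1 library per genotype this does not show that they vary together. The largest endoderm ratios were those of Sox17 (35.8 and 515 CPM), the laminin gene Lama1 (823 and 10036 CPM) and Foxa2 (22.2 and 267 CPM). The lower ones were Thbd (1124 and 493 reads) and Apoa1 (1.09 and 0.284 CPM), and Ttr lay in between (6.57 and 8.06 CPM). Apoa1 reached 1 CPM only in wild type, so its entry into the count was tied to its direction. Most pluripotency markers were lower, with Nr0b1 (340 and 16.4 CPM), Tdgf1 (1128 and 58.0 CPM) and Sox2 (518 and 30.9 CPM) at the low end. The largest fibroblast differences were Twist1 (28.6 and 4.17 CPM), Fstl1 (372 and 79.5 CPM) and Fn1 (1418 and 437 CPM). The part of these cell markers in the levels of Tfec and the folliculin complex was not tested.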

How the data were processed

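Polyadenylated RNA of 1 wild-type and 1 Fbxl10 T/T ES cell library was analysed. Per the submitters' processing notes edgeR, HTSeq 0.5.3p9 and TopHat 1.4.1 were used with build mm9; annotation, strandedness and tool roles are not given in the sources here, so antisense reads cannot be told apart. The deposited values are a normalised signal (CPM of an effective library size), beside a log2 ratio by the authors with T/T as the denominator. All values (100%) were whole multiples of 0.0419 CPM in wild-type cells against 0.0405 CPM in T/T, within 0.01 reads, which gave the reads; 3 reads are 0.126 and 0.122 CPM. Repeated rows (24706 for 13620 genes) were used once. Where a listed gene was at 0 reads in 1 library, the other held no fewer than 22 (wild type) or 29 (T/T), so a gene "not listed" may lie below this.

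Ratios are log2(CPM + 0.5) differences, folds have no constant, and genes at 1 CPM in a library count as measured. With 1 library per genotype there was no test of the genotypes. An exact two-sided binomial test of the reads with Benjamini-Hochberg adjustment, which compares the libraries only, called 5792 genes higher and 5580 lower at 0.05. Named genes are the members, Kdm2b, all 2-fold genes of the Rag, GATOR, mTORC1, AMPK and feedback lists, up to 3 at each end of the other lists, and the neighbours of Tfec in position and rank. A gene that this rule names is not reported here. The members, lists and rules were chosen with earlier results of these data known. Exon lengths came from GENCODE M21 and promoters from RefSeq. Alternatives were other pseudocounts, minimums, scalings, fold thresholds and the added test. Steps were tested on simulated data. Software was matplotlib 3.10.9, scipy 1.17.1, pandas 2.3.3 and numpy 2.4.6 under Python 3.11.15.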

Additional observations from a re-analysis of the deposited data

How the results depend on the processing

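No paired analysis was possible because each genotype had a single library, which also means that none could be omitted. In 48 recomputations of the 7 log2 ratios under other pseudocounts, minimums and scalings, 0 changed sign and 38 stayed within the counting error of the ratio; a minimum of 5 CPM left out Mitf. Dividing the Fbxl10 T/T values to a common upper quartile or total (0.24 or 0.31 on the log2 scale) moved the median of all genes from 0.02 to -0.21 or -0.27. The folliculin complex median of 1.77 became 1.53 or 1.46, the 2-fold lower lysosomal genes numbered 5 under both, and with a common total 3 V-ATPase genes and 1317 of all genes were higher. At 1.5-fold 3582 of all genes and 14 V-ATPase genes were higher and 5 lysosomal genes lower. At 4-fold 519 of all genes were higher and 1229 lower, as were 1 member, 0 folliculin complex genes, 2 lysosomal genes and 0 V-ATPase genes on the higher side and 0 lysosomal genes on the lower. Fewer genes entered with a minimum of 5 CPM, of which 1737 were lower and 1828 higher. The binomial test removed no gene past 2-fold, since 1994 were higher and 2781 lower with and without it. That it kept the 4 higher members therefore says nothing about them. Of 300 counts for the other lists under an alternative, 241 stayed within 1.5 times their value.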

Other observations

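Other leucine zipper factors of the helix-loop-helix class, which also bind E-boxes but do not pair with MiT/TFE proteins, divided in the same libraries. Of 18 measured, 4 were at least 2-fold higher in Fbxl10 T/T, 3 lower and 11 in between, with a median log2 ratio of 0.21, beside 14.8% higher and 20.6% lower over all genes. The sterol regulator genes Srebf1 (72.9 CPM in wild-type cells against 237 CPM in T/T cells) and Srebf2 (235 and 565 CPM), and Mxi1, for a MYC antagonist (37.9 and 106.7 CPM), had the largest ratios. Mxd4, of the same family and outside the rule for named genes, completed the 4 at 24.8 and 58.3 CPM. Myc (73.6 and 11.5 CPM), Mlxipl, for a glucose-responsive factor (2.93 and 0.243 CPM), and Tfap4 (45.7 and 9.72 CPM) were the lower ones. Mlxipl reached 1 CPM only in wild type, so its entry into the count was tied to its direction. With a common total 2 of the 18 were higher.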
